A study of Mus musculus with 12 samples.

Results

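The genes described here are the nuclear-encoded subunits of respiratory complexes II, III, IV and V, measured by bulk RNA sequencing in the mouse lateral septum, a forebrain nucleus of mainly GABAergic neurons. They were chosen by name: protein_coding rows whose symbol starts with Uqcr, Atp5, Cox4, Cox5, Cox6, Cox7 or Cox8, together with Sdha, Sdhb, Sdhc and Sdhd. This gave 48 of 54532 rows of the table, of which 22046 are protein_coding. The 48 rows carry 47 symbols, since Atp5o is listed under 2 gene IDs. Complex II had 4 members, complex III 8, complex IV 18 and complex V 18. A further 8 rows with such names are not protein_coding and stayed out.

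Both groups were wild type (WT) and labelled day 3. The 6 libraries of the first group came from mice given saline, and the 6 of the second from mice given CFA (complete Freund's adjuvant, by its common abbreviation), an oil emulsion used to produce long-lasting inflammation at the injected site. The series title concerns TIA1 of microglia and inflammatory pain, and its stated design sets CFA against saline. Strain, sex, age, the injected site and the number of animals behind a library are not stated in the labels. The p-values below therefore rest on the variation among these 12 libraries, some of which may be technical.

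The respiratory chain sits in the inner mitochondrial membrane. Complex II (succinate dehydrogenase) passes electrons from succinate to ubiquinone, complex III (cytochrome bc1) passes them on to cytochrome c, complex IV (cytochrome c oxidase) gives them to oxygen, and complex V (ATP synthase) uses the proton gradient built by complexes I, III and IV to make ATP. Complex II is encoded entirely in the nucleus, whereas complexes III, IV and V each combine nuclear subunits with mitochondrially encoded ones. Neurons rely heavily on this pathway for ion pumping and synaptic transmission.

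Levels are in FPKM (fragments per kilobase of transcript, scaled to the depth of the library). Depth was 33.6 to 38.4 M reads in saline libraries and 35.5 to 39.2 M reads in CFA libraries. Every member with a saline mean of at least 5 FPKM had at least 400 reads in each library. Counting error alone, from the mean reads per saline library, comes to between 0.529% and 4.40% of the level for these 40 genes (median 1.67%). Xist, expressed in female cells, exceeded 1 FPKM in 2 libraries of the saline and 5 of the CFA group. Ttr, the leading gene of choroid plexus, stood at 2259 FPKM in saline 3 and 701 FPKM in saline 5, and at most 66.6 FPKM elsewhere. In the lateral septum list, Gad1, Trpc4 and 7 other genes were all expressed, with a summed level of 576 to 676 FPKM in saline and 507 to 660 FPKM in CFA. Gad1, Gad2 and Slc32a1, which GABAergic neurons of other regions also express, averaged 121, 163 and 146 FPKM in saline. Zic1 averaged 106 FPKM and Trpc4 16.5 FPKM there, so the sum is not specific to the septum.

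Of the 48 members, 44 reached 1 FPKM in at least 6 libraries and were tested with limma on log2(FPKM + 1), with Benjamini-Hochberg adjustment over all 13345 genes tested. No member passed an adjusted p of 0.05, and the smallest adjusted p among them was 0.206; over all genes tested 4 passed, or 0.03%. At an unadjusted p under 0.05, 17 of the 44 were lower in CFA (38.6%) and 0 were higher, where 4.56% of all genes were lower and 3.11% higher. The fold change, taken as CFA minus saline in log2(FPKM + 1), was negative for 41 members and positive for 3, against 52% negative over all genes. Its median was -0.10 over the members and -0.00427 over all genes tested. The differences are therefore small for each gene and mostly of 1 sign, and none can be called singly after adjustment. Members share libraries, so their signs are not independent of each other. In bulk tissue, fewer cells rich in mitochondria and less RNA per cell cannot be told apart.

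**Figure D1:**
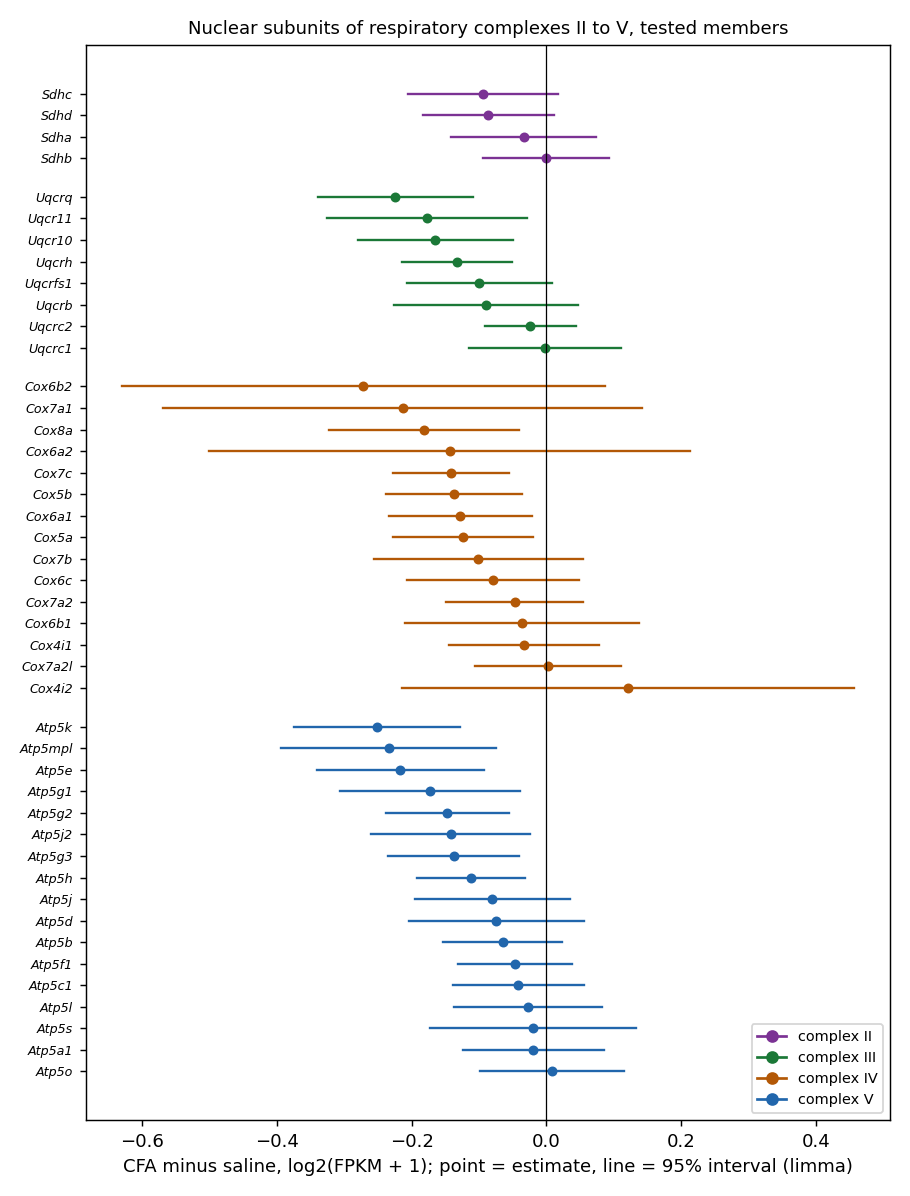
Log2 fold change (CFA minus saline, from log2(FPKM + 1), x axis) of the 44 tested members, grouped by complex and ordered within it; points are limma estimates and lines 95% intervals. Of the estimates, 41 lie left of 0, and the wide intervals belong to tissue isoforms of complex IV with low FPKM.

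No member had 2 groups that failed to overlap, a pattern that 0.495% of all genes showed. In 24 of the 44 tested members (54.5%) at least 3 CFA libraries lay below every saline library, against 16.7% of all genes tested. For the 40 members with a saline mean of at least 5 FPKM, the median coefficient of variation between libraries was 4.66% in saline and 6.95% in CFA.

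Complex II had the median fold change closest to 0 of the 4 complexes, except with Xist as a covariate, where it was -0.062 and that of complex IV -0.037; differences between complexes were not tested. Its catalytic subunits are Sdha, the flavoprotein that oxidizes succinate, and Sdhb, the iron-sulfur protein that hands electrons on, and its membrane anchors are Sdhc and Sdhd. All 4 fold changes were negative, against 52% of all genes tested, none reached an unadjusted p of 0.05, and their median was -0.06. Without CFA 4 it was -0.093. Sdhd ranged from 58.1 to 62.1 FPKM in saline (median 58.8) and from 51 to 61.7 FPKM in CFA (median 55.3), with a log2 fold change of -0.09 ± 0.04 (SE, n = 6 each; limma, Benjamini-Hochberg adjusted p = 0.696). Sdhc ranged from 26.0 to 29.2 FPKM in saline (median 28.1) and from 23.7 to 28.7 FPKM in CFA (median 26.3), with a log2 fold change of -0.09 ± 0.05 (SE; limma adjusted p = 0.720). For both anchors the groups overlapped, with CFA 3 the lowest library. Sdha ranged from 107 to 116 FPKM in saline (median 113) and from 98.7 to 125 FPKM in CFA (median 108), at a log2 fold change of -0.03 ± 0.05 (SE; limma adjusted p = 0.926). Sdhb ranged from 40.0 to 45.0 FPKM in saline (median 42.1) and from 38.7 to 44.5 FPKM in CFA (median 43.3), at a log2 fold change of -0.000129 ± 0.04 (SE; limma adjusted p = 0.999). The 95% interval for Sdhb ran from -0.09 to 0.09, which bounds the difference but does not show that there is none.

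In complex III all 8 members had a negative fold change, against 52% of all genes tested, with a median of -0.12. The 2 core proteins that face the matrix, Uqcrc1 and Uqcrc2, had a median log2 fold change of -0.01, and the 5 small subunits one of -0.16. The difference between these classes was not tested. Of the 8 members 4, all of them small subunits, were lower at an unadjusted p under 0.05, against 4.56% of all genes tested. Short stretches before the RefSeq start of 3 of these genes are shown because they differ in known respiratory gene motifs. The letters CTTCCGG or CCGGAAG, the core bound by ETS factors such as GABPA (nuclear respiratory factor 2), are in capitals. Sequences are from RefSeq on GRCm38.p6, all on the minus strand, read 5′ to 3′.
Uqcrh, chr4:116075071-116075170: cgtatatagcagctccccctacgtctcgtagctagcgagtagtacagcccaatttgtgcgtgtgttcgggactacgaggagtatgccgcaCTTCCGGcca
Uqcr11, chr10:80406868-80406897: tctctcctccCCGGAAGtagatgtcaatgt
Uqcr10, chr11:4704345-4704444: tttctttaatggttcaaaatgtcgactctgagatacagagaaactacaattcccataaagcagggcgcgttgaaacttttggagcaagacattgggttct

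Uqcrh, the hinge protein that binds cytochrome c1, ranged from 80.5 to 85.7 FPKM in saline (median 84.5) and from 71.0 to 80.6 FPKM in CFA (median 76.4). All CFA libraries but 1 were below every saline library, and the log2 fold change was -0.13 ± 0.04 (SE, n = 6 each; limma, Benjamini-Hochberg adjusted p = 0.355). Uqcr10, a small subunit whose stretch above holds none of the searched respiratory motifs, ranged from 82.3 to 98.3 FPKM in saline (median 89.6) and from 74.3 to 87.7 FPKM in CFA (median 79.1). In 4 CFA libraries it was below every saline library, at a log2 fold change of -0.16 ± 0.05 (SE; limma adjusted p = 0.420). Whether the motif bears on the fold change was not tested. Uqcr11, another small subunit, ranged from 86.8 to 108 FPKM in saline (median 99.3) and from 76.1 to 99.4 FPKM in CFA (median 87.4), at a log2 fold change of -0.18 ± 0.07 (SE; limma adjusted p = 0.580). Its groups overlapped, and 3 CFA libraries were below every saline library.

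Uqcrq, a small subunit beside cytochrome b (ENSMUSG00000044894, chr11:53427922-53430831, minus strand, GRCm38), had the largest difference of complex III. It ranged from 41.1 to 47.1 FPKM in saline (median 45.4) and from 34.2 to 41.9 FPKM in CFA (median 39.7). Only CFA 4 reached above the lowest saline library, saline 5, and the log2 fold change was -0.22 ± 0.05 (SE, n = 6 each; limma adjusted p = 0.217). Without saline 5 the other 5 saline libraries started at 45.0 FPKM. Uqcrfs1, the Rieske iron-sulfur protein, averaged 77.3 ± 3.55 FPKM in saline and 72.1 ± 4.93 FPKM in CFA (SD, n = 6 each), and the small subunit Uqcrb averaged 37.7 ± 3.01 and 35.4 ± 2.98 FPKM. Neither reached an unadjusted p of 0.05. Uqcrc1 averaged 47.6 ± 1.27 FPKM in saline and 47.6 ± 4.20 FPKM in CFA, and Uqcrc2 53.4 ± 1.37 and 52.5 ± 1.11 FPKM. The annotated bounds of Uqcrb overlap the coding gene Gm10767 and those of Uqcrc2 overlap Pdzd9. Whether counting used strand is not stated, so reads in the overlaps could belong to either gene.

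In complex IV, 13 of 15 tested members had a negative fold change and 5 were lower at an unadjusted p under 0.05. Of all genes tested, 52% were negative and 4.56% lower at that p. The median of complex IV was -0.12, and -0.10 with a filter of 5 FPKM, which leaves out the tissue isoforms. All 5 members with such a p belong to the 10 ubiquitous subunits, which had a median of -0.11. Cox8a, the small ubiquitous subunit 8, had the highest level of all members. It ranged from 462 to 514 FPKM in saline (median 481) and from 351 to 473 FPKM in CFA (median 439), at a log2 fold change of -0.18 ± 0.07 (SE, n = 6 each; limma, Benjamini-Hochberg adjusted p = 0.519). Of the CFA libraries, 5 were below every saline library, and CFA 1 was the lowest at 351 FPKM. Cox7c, a small subunit, ranged from 82.5 to 93.1 FPKM in saline (median 88.1) and from 76.1 to 83.4 FPKM in CFA (median 79.3), at a log2 fold change of -0.14 ± 0.04 (SE; limma adjusted p = 0.341). Here CFA 1 was the one CFA library above the saline minimum, so the library that was lowest for Cox8a was highest of its group for Cox7c.

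Cox5b, which faces the matrix and binds zinc, ranged from 61.0 to 70.1 FPKM in saline (median 66.1) and from 54.5 to 64.3 FPKM in CFA (median 60.3), at a log2 fold change of -0.14 ± 0.05 (SE, n = 6 each; limma adjusted p = 0.453). Cox6a1, the subunit 6A form found in most tissues, ranged from 296 to 341 FPKM in saline (median 328) and from 279 to 325 FPKM in CFA (median 295), at a log2 fold change of -0.13 ± 0.05 (SE; limma adjusted p = 0.574). In both genes 3 CFA libraries lay below every saline library and the groups otherwise overlapped. Cox5a averaged 27.1 ± 1.22 FPKM in saline and 24.8 ± 1.71 FPKM in CFA (SD, n = 6 each), the fifth member of this complex with an unadjusted p under 0.05. Cox7b averaged 56.0 ± 5.45 and 52.1 ± 4.49 FPKM, Cox6c 32.2 ± 1.78 and 30.5 ± 2.71 FPKM, and Cox7a2 86.9 ± 2.91 and 84.2 ± 5.84 FPKM. Those 3 had negative fold changes within the spread between libraries. Cox4i1, the ubiquitous regulatory subunit 4, averaged 203 ± 4.87 FPKM in saline and 199 ± 17.3 FPKM in CFA, and Cox6b1, which faces the intermembrane space, 145 ± 5.16 and 142 ± 22.0 FPKM. CFA 4 (233 FPKM for Cox4i1 and 182 FPKM for Cox6b1) was the highest of all 12 libraries for both, and the spread of the CFA group was the larger.

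Cox7a2l, which joins complexes III and IV into a supercomplex, ranged from 92.8 to 105 FPKM in saline (median 95.2) and from 86.8 to 105 FPKM in CFA (median 97.8). Its log2 fold change was 0.00316 ± 0.05 (SE, n = 6 each; limma, Benjamini-Hochberg adjusted p = 0.993). The tissue forms of complex IV were low throughout. Cox4i2, the lung form of subunit 4, ranged from 0.435 to 1.43 FPKM in saline (median 0.942) and from 0.439 to 1.60 FPKM in CFA (median 1.09), at a log2 fold change of 0.12 ± 0.16 (SE; limma adjusted p = 0.901), the largest positive value of any member and inside its error. Cox6a2, the heart and muscle form of subunit 6A, averaged 2.34 ± 0.707 FPKM in saline and 2.05 ± 0.795 FPKM in CFA (SD, n = 6 each), Cox7a1, the heart and muscle form of subunit 7A, 1.48 ± 0.791 and 1.08 ± 0.264 FPKM, and Cox6b2, the testis form of subunit 6B, 1.43 ± 0.551 and 1.02 ± 0.423 FPKM. Saline 3 held the highest value of Cox7a1 (2.91 FPKM) and of Cox6b2 (2.54 FPKM), and its part in those differences was not tested. Muscle markers summed to 3.38 to 5.14 FPKM over all libraries, with Ckm and Myh2 under 0.1 FPKM everywhere.

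Untested for low levels were Cox7b2, Cox8b, Cox8c and the second Atp5o row. Cox8b, the heart and muscle form of subunit 8, had reads in 9 of 12 libraries, 71 in the saline group and 27 in CFA, and saline 3 alone stood at 3.17 FPKM. Cox7b2, the testis form of subunit 7B, averaged 0.450 ± 0.394 FPKM in saline and 0.284 ± 0.178 FPKM in CFA (SD, n = 6 each). Cox8c, the testis form of subunit 8, had 0 reads in all 12 libraries, which allows levels of up to 0.165 to 0.195 FPKM, and the second Atp5o row had 0 reads, which allows 0.143 to 0.168 FPKM; these limits of 3 reads per library cover counting error only. Expressed as a share of the summed FPKM of each isoform pair, the ubiquitous form made up 99.5% ± 0.185 (Cox4i1), 99.3% ± 0.205 (Cox6a1), 99.0% ± 0.347 (Cox6b1) and 98.3% ± 0.883 (Cox7a2) in saline (SD, n = 6 each). In CFA the same shares were 99.4% ± 0.228, 99.3% ± 0.271, 99.3% ± 0.268 and 98.7% ± 0.306. Isoform use in complex IV was thus almost entirely of the ubiquitous kind in both groups.

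**Figure D2:**
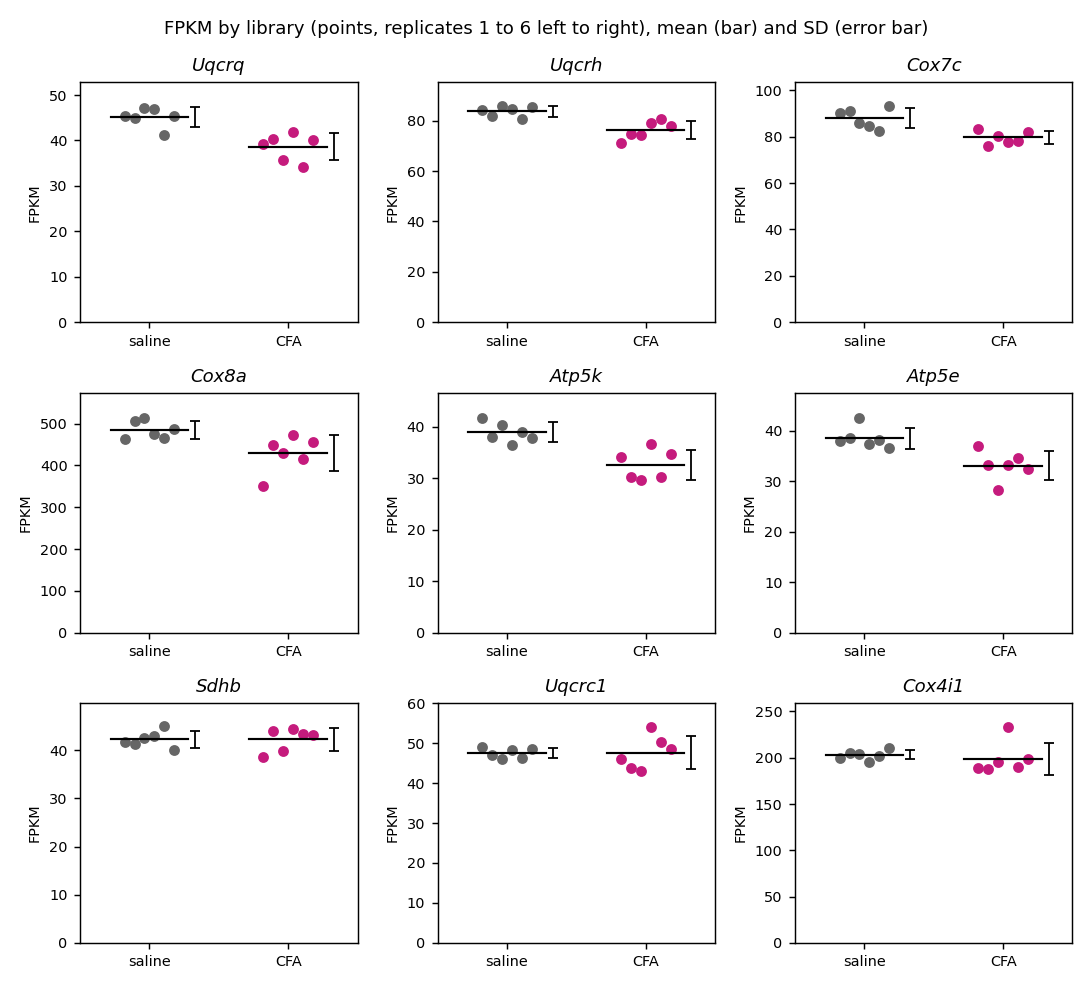
FPKM (y axis, from 0) of 9 members in each of the 12 libraries; points are libraries in replicate order, bars group means and error bars SD (n = 6 each). For Uqcrq, Uqcrh, Cox7c, Cox8a, Atp5k and Atp5e, 5 of 6 CFA libraries lie below every saline library, while Sdhb, Uqcrc1 and Cox4i1 overlap, with CFA 4 the highest library for Uqcrc1 and Cox4i1.

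Complex V joins a matrix head, F1, whose alpha and beta subunits make ATP, to the membrane part Fo, whose ring of c subunits is turned by protons. Of 17 tested members 16 had a negative fold change, 8 were lower at an unadjusted p under 0.05 and the median was -0.08. The shares over all genes tested were 52% negative and 4.56% lower at that p. Of the c ring 3 of 3 members had an unadjusted p under 0.05 (median -0.15), and of the Fo membrane subunits 3 of 4 (median -0.19). In F1 it was 1 of 5, Atp5e (median -0.06), and in the stalks that link head and membrane 1 of 4 (median -0.06). The differences between these classes were not tested. Sites before or around the RefSeq start are printed for a few subunits, 1 motif site each. Of the 100 bases before the start, GENCODE M21 exons of either strand cover 80 for Atp5g2 and 68 for Sdhb. They cover 49 for Atp5k, 43 for Atp5h and 23 for Cox6a1, so a printed site is not always outside transcribed sequence. The windows of Atp5k, Cox6a1, Sdhb and Uqcr11 hold both the NRF1 and the ETS core described here, of which 1 is printed. Capitals mark GCATGCGC or its reverse GCGCATGC, the core bound by nuclear respiratory factor 1 (NRF1), where overlapping matches on both strands merge, or the ETS core CTTCCGG. Sequences are from RefSeq on GRCm38.p6, read 5′ to 3′ on the minus strand except Sdhb on the plus strand.
Atp5k, chr5:108434430-108434459: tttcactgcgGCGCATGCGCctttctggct
Atp5g2, chr15:102671070-102671099: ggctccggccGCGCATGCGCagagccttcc
Atp5h, chr11:115419938-115419967: aaggagagaaCTTCCGGcaactctcttccg
Cox6a1, chr5:115348955-115348984: cccatttccgCTTCCGGcgcgccggtgtag
Sdhb, chr4:140961207-140961236: agcccagtggGCATGCGCcctacgggccgc

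Atp5k, subunit e of Fo, which helps ATP synthase dimers shape the inner membrane (ENSMUSG00000050856, chr5:108433244-108434448, minus strand, GRCm38), had the smallest p of all members. It ranged from 36.4 to 41.8 FPKM in saline (median 38.5) and from 29.6 to 36.7 FPKM in CFA (median 32.2). All CFA libraries but CFA 4 lay below every saline library, and the log2 fold change was -0.25 ± 0.06 (SE, n = 6 each; limma, Benjamini-Hochberg adjusted p = 0.206). Atp5e, the epsilon subunit of F1, ranged from 36.6 to 42.5 FPKM in saline (median 38.0) and from 28.2 to 36.9 FPKM in CFA (median 33.2), at a log2 fold change of -0.22 ± 0.06 (SE; limma adjusted p = 0.308). Again 5 CFA libraries were below every saline library. Atp5mpl, the 6.8 kDa proteolipid of Fo, ranged from 33.4 to 43.7 FPKM in saline (median 39.2) and from 29.3 to 38.8 FPKM in CFA (median 32.5), at a log2 fold change of -0.23 ± 0.07 (SE; limma adjusted p = 0.401). Its groups overlapped more, with 3 CFA libraries below every saline library.

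Atp5g2, 1 of 3 genes that encode the same mature subunit c, ranged from 31.2 to 35.1 FPKM in saline (median 33.3) and from 28.6 to 32.3 FPKM in CFA (median 29.4), at a log2 fold change of -0.15 ± 0.04 (SE, n = 6 each; limma, Benjamini-Hochberg adjusted p = 0.360). Atp5g3 averaged 90.3 ± 4.18 FPKM in saline and 82.0 ± 4.59 FPKM in CFA (SD, n = 6 each), and Atp5g1 23.4 ± 1.39 and 20.7 ± 1.99 FPKM. All 3 were therefore lower in CFA on average, and their shares of the summed subunit c level were close: 61.5% ± 0.842 in saline and 61.9% ± 1.38 in CFA for Atp5g3, 22.6% ± 0.976 and 22.5% ± 1.15 for Atp5g2, and 16.0% ± 1.01 and 15.6% ± 1.05 for Atp5g1. In each case the groups overlapped, and the shares were not tested.

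Of the other Fo membrane subunits, Atp5j2 (subunit f) averaged 28 ± 1.36 FPKM in saline and 25.4 ± 2.23 FPKM in CFA (SD, n = 6 each), with 5 CFA libraries below every saline library. Atp5l (subunit g) averaged 6.08 ± 0.400 and 5.95 ± 0.367 FPKM, and its groups overlapped. Of the stalk, Atp5h (subunit d) averaged 67.7 ± 2.87 and 62.6 ± 1.89 FPKM, Atp5j (coupling factor 6) 29.9 ± 1.47 and 28.3 ± 2.18 FPKM, and Atp5f1 (subunit b) 47.6 ± 1.64 and 46.1 ± 2.09 FPKM. Only Atp5h among these 3 had an unadjusted p under 0.05. Atp5o, the oligomycin sensitivity protein at the top of the stalk, ranged from 9.13 to 10.6 FPKM in saline (median 9.60) and from 8.95 to 10.5 FPKM in CFA (median 9.89), with a log2 fold change of 0.01 ± 0.05 (SE; limma, Benjamini-Hochberg adjusted p = 0.981). Its level stood well below that of other stalk subunits. Its 2 rows overlap on the genome, and the second had 0 reads. Whether reads that fit both rows were dropped was not tested.

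The large F1 subunits differed little. Atp5a1 (alpha) averaged 264 ± 8.50 FPKM in saline and 261 ± 19.3 FPKM in CFA (SD, n = 6 each), and Atp5b (beta) 235 ± 8.43 and 225 ± 10.6 FPKM. Atp5c1 (gamma) averaged 85.9 ± 4.22 and 83.4 ± 4.36 FPKM, and Atp5d (delta) 77.9 ± 2.45 and 74.3 ± 7.94 FPKM. Atp5s, a coupling factor outside the core enzyme, averaged 7.03 ± 0.874 and 6.90 ± 0.481 FPKM. None of these 5 reached an unadjusted p of 0.05. Annotated bounds of 10 members overlap another coding gene, among them Atp5j with Gabpa, Atp5d with Cbarp, Atp5f1 with Wdr77, Cox6c with Vps13b and Cox4i1 with Emc8. None of these named 5 had an unadjusted p under 0.05.

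Averaged over members with a saline mean of at least 5 FPKM, each library's level was set against the saline mean. CFA libraries lay between -0.15 and -0.06 (log2) for complex III, between -0.14 and -0.01 for complex IV and between -0.13 and -0.05 for complex V. The saline libraries other than saline 5 lay at or above -0.02 in these 3 complexes, while saline 5 lay at -0.11, -0.08 and -0.07, inside the CFA range. In complex II, CFA libraries spread from -0.15 (CFA 3) to 0.08 (CFA 4), across the saline range of -0.03 to 0.02. In complexes III, IV and V, saline 5 and CFA 6 were the libraries closest to the other group. Saline 5 is 1 of the 2 saline libraries with Xist. The other, saline 2, lay at -0.02, 0.00254 and 0.02 for complexes III, IV and V. CFA 3, the CFA library without Xist, lay at -0.15, -0.10 and -0.13.

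**Figure D3:**
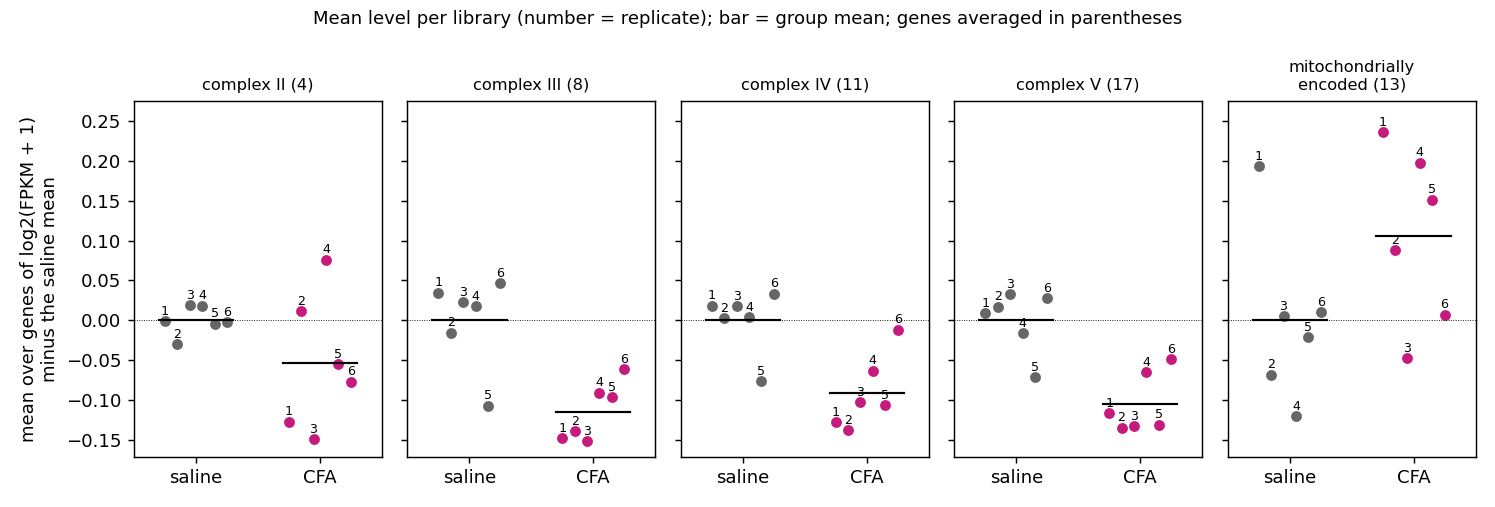
Mean log2(FPKM + 1) over the genes of each complex minus the mean of the 6 saline libraries (y axis) for each library (numbers are replicates); bars are group means, and the number of genes averaged is in parentheses. CFA libraries lie at -0.15 to -0.01 for complexes III to V, with saline 5 among them, and the 13 mitochondrially encoded genes do not follow.

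The lowest library of the 40 members with a saline mean of at least 5 FPKM was CFA 1 for 11 of them, CFA 4 for 9, CFA 3 for 8, CFA 2 for 5 and CFA 5 for 4. Highest was most often saline 3 (11 members), then saline 6 (7) and CFA 4 (6). CFA 4 therefore held both extremes. Against the other 5 CFA libraries it was higher in 26 members and lower in 14. For Cox6c, Atp5j and Uqcrfs1 it was the lowest of all libraries, and for Cox6b1, Atp5d, Cox4i1 and Atp5a1 the highest. Across the 40 members, its difference from the rest of its group had a Pearson correlation of 0.36 with the GC content of the transcript (Spearman 0.37), and across 13330 genes tested with a known GC content it was 0.43, the highest of the 12 libraries. In CFA 1 the same correlation across members was -0.46. These describe genes of 1 library, which are not replicates. Without CFA 4, 22 members were lower at an unadjusted p under 0.05 and the share over all genes was 8.06%, with a smallest adjusted p among members of 0.0777 (limma, Benjamini-Hochberg).

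**Figure D4:**
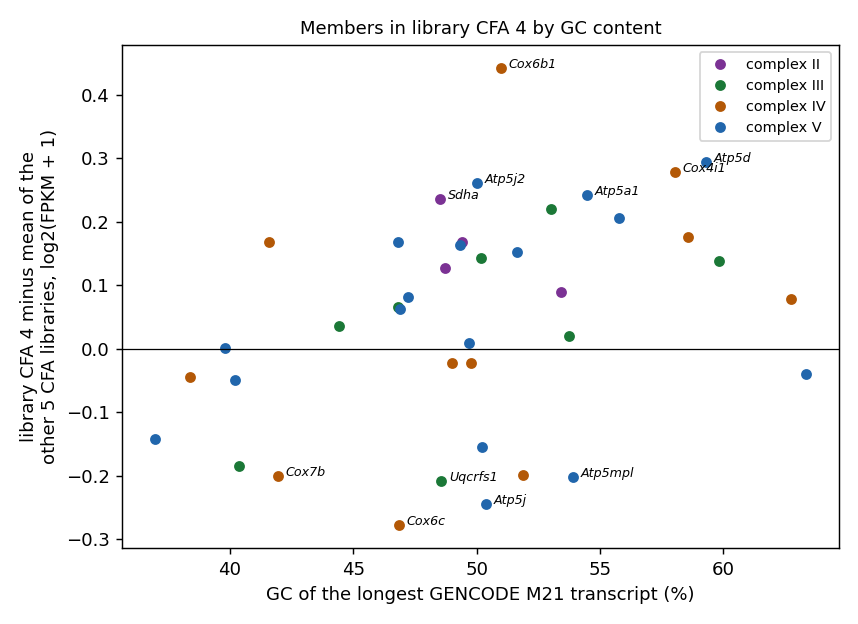
Difference of CFA 4 from the mean of the other 5 CFA libraries, in log2(FPKM + 1) (y axis), against GC content of the longest GENCODE M21 transcript in percent (x axis), for the 40 members with a saline mean of at least 5 FPKM; each point is a gene, coloured by complex. The scatter is wide (Pearson 0.36): Cox4i1 and Atp5d, of high GC, lie above 0 and Cox7b, of low GC, below, but Atp5g2, of the highest GC, lies below 0 and Cox5a, of low GC, above.

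Members are short genes: the median length in the table was 1507.5 bases, against 4194 bases for all genes tested. Across the 44 tested members the fold change had a Pearson correlation of 0.34 with log10 of length (Spearman 0.42), so shorter members tended to have the more negative values. With GC content it was -0.20 and with the saline level 0.02. All points come from the same 12 libraries. In each library, the deviation of each gene from its mean over the 12 libraries was smoothed against length, over all genes tested. With that trend taken out, 17 members were lower at an unadjusted p under 0.05, against 3.75% of all genes, and the median over the members was -0.07. With length and GC content taken out together, 13 were lower, against 4.01% of all genes, and the median was -0.08.

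Promoter windows from RefSeq (250 bases before to 50 after the start, GRCm38.p6) were found for 36 of the 47 symbols, 39 windows in all; Uqcrq was not matched. Both strands were searched. The NRF1 core GCATGCGC was in 17.9% of the 39 windows, against 2.71% of 32851 windows of all genes and 5% of 12569 windows of genes tested. The ETS core CCGGAAG was in 30.8%, against 8.86% and 16.3%. The letters AAGATGGC, bound by YY1, were in only 3 of the 39 windows (7.69%), against 2.75% and 4.25%. TCAAGGTCA, bound by ESRRA, was in only 2 (5.13%), against 0.423% and 0.286%. The CCAAT box was in 53.8% of windows, against 37.4% and 37.3%. GGGCGG, bound by SP1, was in 35.9%, against 35.7% and 62.4%, and TATAAA in 3 windows (7.69%), against 13.6% and 6.97%. The NRF1 core overlaps its own reverse in the palindromes printed for Atp5k and Atp5g2, and overlaps among the other motifs were not counted. The 14 tested members with an NRF1 or ETS core had a median log2 fold change of -0.12 and the 20 without one -0.10. Sdhb, with the NRF1 core printed above, had a fold change of -0.000129 and Atp5k, with the same core, had one of -0.25. A match describes letters in a window and is not a measured binding site.

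Genes that work with these subunits were read from the same fit, in lists chosen with earlier results of these data known. Of Cycs (cytochrome c), Cyc1 (cytochrome c1 of complex III) and Ndufa4 (now counted with complex IV), which the name rule leaves out, all 3 had negative fold changes of -0.13, -0.10 and -0.11, and 2 had an unadjusted p under 0.05. Of the 36 nuclear subunits of complex I, 32 were negative, 10 were lower at an unadjusted p under 0.05 and 0 higher, with a median of -0.08. Over all genes tested, 52% were negative, 4.56% lower and 3.11% higher. Ndufs6 averaged 36.5 ± 1.73 FPKM in saline and 31.6 ± 2.00 FPKM in CFA (SD, n = 6 each), Ndufb6 42.8 ± 2.61 and 36.5 ± 3.33 FPKM, and Ndufc1 25.7 ± 1.60 and 22.9 ± 0.738 FPKM. For Ndufc1 all 6 CFA libraries were below every saline library. No gene of these lists passed the adjusted threshold.

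The 13 mitochondrially encoded protein genes, whose products join the same complexes, did not share the sign. Of them 10 had a positive and 3 a negative fold change, with a median of 0.13, and 1, mt-Nd4, was higher at an unadjusted p under 0.05. Over all genes tested 3.11% were higher. For mt-Nd4 the mean was 2070 ± 149 FPKM in saline and 2329 ± 141 FPKM in CFA (SD, n = 6 each), at a log2 fold change of 0.17 ± 0.06 (SE; limma, Benjamini-Hochberg adjusted p = 0.491). The partners of the members themselves were mt-Cytb of complex III (log2 fold change 0.05), mt-Co1, mt-Co2 and mt-Co3 of complex IV (-0.02, 0.000965 and 0.19) and mt-Atp6 and mt-Atp8 of complex V (0.43 and -0.07). None of these 6 reached an unadjusted p of 0.05. In saline and CFA, mt-Cytb averaged 5085 and 5271 FPKM and mt-Co1 8911 and 8829 FPKM. Means were lower for mt-Co2 (94.0 and 95.6 FPKM) and mt-Co3 (51.8 and 60.0 FPKM). For mt-Atp6 they were 53.7 ± 16.5 and 76.7 ± 40.9 FPKM (SD, n = 6 each). Values of mt-Atp8 ranged from 0.420 to 1.93 FPKM in saline and from 0.790 to 1.94 FPKM in CFA. The summed level of the 13 genes had a median of 26218 FPKM in saline and 26533 FPKM in CFA. The difference between the nuclear and the mitochondrial genes was not tested, and the share of reads from the mitochondrial chromosome was 3.59% to 4.79% over the 12 libraries.

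Of 28 tested assembly factors of complexes II to V, 21 were negative, 5 were lower at an unadjusted p under 0.05 and 0 higher (median -0.05), led by Atpaf2, which helps assemble F1, with 8.66 ± 0.466 FPKM in saline and 7.66 ± 0.589 FPKM in CFA (SD, n = 6 each). Of 14 transcriptional regulators of respiratory genes, 9 were negative (median -0.02), and only the orphan receptor Esrra had an unadjusted p under 0.05, at 24.7 ± 1.26 and 22.2 ± 2.59 FPKM. Citric acid cycle enzymes had 13 of 16 negative and 2 lower (median -0.05), with Idh3a at 48.5 ± 1.21 and 44.9 ± 1.84 FPKM. Carriers and shaping proteins of the inner membrane had 11 of 14 negative and 1, the ATP carrier Slc25a4, lower (median -0.02). Mitochondrial ribosomal proteins had 56 of 77 negative and 9 lower (median -0.04), and cytosolic ribosomal proteins 49 of 82 negative and 5 lower (median -0.02). In none of these lists was a gene higher at an unadjusted p under 0.05 or past the adjusted threshold. The share lower at an unadjusted p under 0.05 was 17.9% for assembly factors, 12.5% for citric acid cycle enzymes and 11.7% for mitochondrial ribosomal proteins. It was 7.14% for regulators, 7.14% for carriers and shaping proteins and 6.10% for cytosolic ribosomal proteins, against 4.56% of all genes tested. Of all genes tested 52% were negative, and of these lists 59.8% (cytosolic ribosomal proteins) to 81.25% (citric acid cycle enzymes).

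Markers of other cell types are given beside these values. Over all genes tested, 52% were negative, and 4.56% were lower and 3.11% higher at an unadjusted p under 0.05. All 12 pan-neuronal markers had negative fold changes (median -0.08; 3 at an unadjusted p under 0.05), with a summed level of 1219 to 1390 FPKM in saline and 1153 to 1332 FPKM in CFA. All 9 markers of striatal projection neurons, which border the septum, had positive fold changes (median 0.45, 1 at an unadjusted p under 0.05). Their sums were 85.0 to 149.5 FPKM in saline and 87.9 to 273 FPKM in CFA. Of the 9 markers listed for the lateral septum, which include the broader Gad1, Gad2 and Slc32a1, 8 were negative (median -0.13). All 8 oligodendrocyte markers (median 0.15) and all 5 tested ependymal markers (median 0.19) were positive. Of the 10 microglial markers 5 were negative and 5 positive (median 0.03), with 3 lower and 4 higher at an unadjusted p under 0.05. Ctss, the lysosomal protease cathepsin S, was the marker that passed the adjusted threshold, at 23.4 ± 2.04 FPKM in saline and 32.9 ± 2.75 FPKM in CFA (SD, n = 6 each; limma, Benjamini-Hochberg adjusted p = 0.0304). Complement genes C1qa, C1qb and C1qc were the others higher, and the chemokine receptor Cx3cr1, at 9.10 ± 0.737 and 3.18 ± 2.13 FPKM, Csf1r and P2ry12 the lower ones, none past the adjusted threshold; these 7 were named after their values were seen. Astrocyte markers had a median of -0.03, with 1 of 9 higher at an unadjusted p under 0.05. Endothelial ones had a median of -0.01, with 1 of 7 lower at that p. The 3 tested choroid plexus markers were all negative (median -0.44). With the mean of the pan-neuronal markers as a covariate, 7 members were lower at an unadjusted p under 0.05 (3.45% of all genes), with Xist as a covariate 9 (3.42%), and with the striatal markers 15 (3.93%). The median over the members was -0.08, -0.08 and -0.10 in these fits, and how far tissue makeup or sex takes part in the lower values was not tested beyond them.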

How the data were processed

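RNA of 12 lateral septum samples, 6 saline and 6 CFA, was sequenced as paired reads of 150 bases from 0.2 µg of RNA, per the labels' protocols. Reads were aligned with HISAT2 2.0.5 to mm10, per the submitters' processing notes; sources used here do not give the read counter, strand setting or annotation. FPKM values were deposited by the authors per gene and library, with a gene length, and 46 of the 48 members have the coordinates of GENCODE M21. FPKM was multiplied by length and divided by a step fitted in each library on genes with few reads. Of the values above 0, 100% were then within 0.01 of a whole number, taken as reads, which gave the depths. A further 6 columns of per-sample values matched no sample and were not used.

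Genes entered the test if 6 or more libraries had an FPKM of 1 or more. The test was limma 3.58.1 (R 4.3.3) on log2(FPKM + 1) with a pseudocount of 1, eBayes with a mean-variance trend, two-sided, no covariates, with Benjamini-Hochberg adjustment over 13345 genes (threshold 0.05). On that scale a fold change, CFA minus saline, understates the change of low genes. Intervals are 95%. The fit was tested on simulated data. Same-numbered libraries of the groups did not deviate together, so the replicate number was no block in it. Members, lists and marker genes were chosen with earlier results of these data known. Full statistics were given, by rule, for up to 4 members per complex with the smallest unadjusted p and the 3 largest positive fold changes, and from each other list the up to 3 genes with the smallest p could be named; mitochondrial partners of the complexes, CFA 4 examples and other genes were named after their values were seen. Alternatives covered pseudocount, filter, scaling, length and GC trends, variance model, voom on recovered reads, replicate block, covariates and left-out libraries. Other steps ran in Python 3.11.15 with numpy 2.4.6, pandas 2.3.3, matplotlib 3.10.9 and scipy 1.17.1.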

Additional observations from a re-analysis of the deposited data

Results flagged for a closer look

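Of 88 sets of 6 libraries (44 tested members in each group), 10 held 1 library far from the other 5 by Dixon's criterion at the 95% level, where chance gives about 1 in 20. CFA 4, saline 5 and saline 3 account for all of them, and the causes were not tested. CFA 4 was high for Cox4i1 at 233 FPKM (others 188 to 198), Atp5a1 at 299 FPKM (others 247 to 258), Atp5b at 245 FPKM (others 216 to 225) and Atp5j2 at 29.6 FPKM (others 23.4 to 25.6). Saline 5 was low for Uqcrq at 41.1 FPKM (others 45.0 to 47.1), Cox6a1 at 296 FPKM (others 325 to 341) and Atp5g3 at 82.1 FPKM (others 90.1 to 93.3). Saline 3 was high for Cox6b2 at 2.54 FPKM (others 1.11 to 1.34), Atp5e at 42.5 FPKM (others 36.6 to 38.6) and Atp5g1 at 26.2 FPKM (others 22.2 to 23.1).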

How the results depend on the processing

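Under every alternative run, 0 members passed the adjusted threshold, with a smallest adjusted p among members between 0.0777 (limma, without CFA 4) and 0.459 (Xist as a covariate), and 0 members were higher at an unadjusted p under 0.05. The count lower at an unadjusted p under 0.05, 17 (4.56% of all genes), became 10 with TPM (1.86%) and 12 with quantile normalization (3.93%). It was 7 with the pan-neuronal covariate (3.45%), 9 with the Xist covariate (3.42%) and 15 to 22 with 1 library left out in turn. With TPM, 46 members were tested, and the median over all genes was 0.035, against -0.00427 in the main fit. The complex IV median became -0.073 with quantile normalization, -0.081 with the pan-neuronal covariate and -0.037 with the Xist covariate, and the complex V median lay between -0.12 (without CFA 4) and -0.075 with 1 library left out. The causes were not tested. The other 167 values of the counts and medians kept their direction; medians among them moved by less than 1 SD between libraries, though the complex II median, -0.06, became -0.021 with TPM, -0.025 with quantile normalization, -0.036 and -0.037 with the striatal and pan-neuronal covariates and -0.093 without CFA 4, and the complex V median, -0.08, became -0.043 with TPM. The same numbers did not pair the libraries (correlations of deviations -0.01 to 0.16; 2 of 6 saline libraries were closest to their own number), and with the replicate block 17 members were lower, with a smallest adjusted p of 0.276. Fold changes near 0 turned their sign. Sdhb became 0.039 with TPM, 0.0058 with median ratio scaling, 0.00212 with nuclear reads, 0.031 with quantile normalization, 0.019 with the length and 0.016 with the GC correction, 0.027 with both, 0.00513 with voom, 0.019 with the striatal covariate, 0.024 without saline 3 and 5, and -0.015 to 0.024 with 1 library left out. Sdha became 0.00598 with TPM and 0.00131 with quantile normalization. Atp5o became -0.019, -0.00607 and -0.012, and Cox7a2l -0.034, -0.022 and -0.018, with the striatal covariate, the Xist covariate and without saline 3 and 5, with ranges of -0.011 to 0.032 and -0.020 to 0.035 when 1 library was left out. Cox4i2 became -0.018 with the striatal covariate. The GC correction, alone or with length, was chosen after seeing the data. Among tested members, reads were few only for the tissue isoforms. Their intervals were wide, and how much of that width is counting error was not tested.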
